A study of Mus musculus with 12 samples.

Results

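Transcripts of 10 genes of haem breakdown and iron handling were followed in BV2 cells, an immortalised mouse microglial line, under oxyhaemoglobin (oxy-Hb). The genes were taken by symbol from both deposited tables, joined by Ensembl identifier, and all 10 of the 10 were found among 22935 listed genes. Messenger RNA was sequenced in 3 libraries of oxy-Hb plus C3a, 3 of oxy-Hb plus C3aRA and 3 of oxy-Hb alone. Each of these 9 libraries had received 10 µM oxy-Hb, so haemoglobin was common to all groups and the response to it was not measured; the 3 PBS samples were not analysed here. C3a, the fragment of complement component C3 that binds the receptor C3aR, was given at 20 ug/ul on the label, a unit that is uncertain for a peptide. C3aRA, which the labels leave as an abbreviation, was given at 50 µM. The length of exposure is not given in the sources used here, and all groups were a single cell line.

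Haem taken up from haemoglobin is opened by haem oxygenase, which releases iron, carbon monoxide and biliverdin, and biliverdin reductases turn biliverdin into bilirubin. The freed iron is stored in ferritin or leaves the cell through ferroportin, while the transferrin receptor brings iron in. When iron is scarce, iron regulatory proteins bind a hairpin in messenger RNA, the iron-responsive element. Bound in a 5′ UTR it holds back translation, as in ferritin, and bound in a 3′ UTR it protects the message from decay, as in the transferrin receptor. In the brain, microglia and macrophages clear haemoglobin and its iron after bleeding. Messenger RNA counts do not show the translational part of this control.

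Iron-responsive elements found in members other than Fech are shown, since uptake, storage and export genes carry them in different parts of the message. The search took a bulged C, 5 bases, the 6-base loop CAGTGN and 5 bases that pair with the first 5, with G-T pairs allowed, on the transcript strand only. Elements are listed for 4 of the 10 members. The result for Fech is not reported here, so the list does not show whether Fech holds a match. Over all genes, 565 of 58797 protein-coding transcripts (0.961%) held a match. Capitals mark the bulged C and the loop, and T stands for U.
Fth1 5′ UTR: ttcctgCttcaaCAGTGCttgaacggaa
Ftl1 5′ UTR: gtcttgCttcaaCAGTGTttgaacggaa
Slc40a1 5′ UTR: caacttCagctaCAGTGTtagctaagtt
Tfrc 3′ UTR, element 1: aattatCggaagCAGTGCcttccataat
Tfrc 3′ UTR, element 2: cattatCgggagCAGTGTcttccataat
Tfrc 3′ UTR, element 3: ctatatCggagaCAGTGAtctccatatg
Tfrc 3′ UTR, element 4: aattatCgggaaCAGTGTttcccataat
Sequences and positions are from GENCODE M21 on GRCm38. The Fth1 element lies at chr19:9982732-9982759 on the plus strand, that of Ftl1 at chr7:45459780-45459807 on the minus strand and that of Slc40a1 at chr1:45925466-45925493 on the minus strand. The 4 Tfrc elements lie on the plus strand at chr16:32631219-32631246, chr16:32631598-32631625, chr16:32631663-32631690 and chr16:32631710-32631737. A match is a description of these letters, and binding was not measured.

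Library totals ran from 12934794 to 20479002 counts, and 3 counts, the floor for a count of 0, equalled 0.146 to 0.232 CPM, counts scaled to a common library total, for counting error only. C3a replicate 2 stood apart: its score on principal component 1 was -76.3, where the other 8 lay between -10.8 and 23.8. Its ribosomal protein genes took 48451 CPM in sum, and those of the other 8 took 31083 to 35712 CPM. Results that rest on this library are therefore also given without it. All 10 microglia and macrophage markers were listed, and they summed to 1847 to 1990 CPM in C3a libraries, 1735 to 1869 CPM in C3aRA libraries and 1675 to 1792 CPM in oxy-Hb libraries. Cd68 stood at 804 to 1004 CPM, but Tmem119, P2ry12 and Aif1, markers of microglia in tissue, reached only 2.41, 3.91 and 2.92 CPM. Of the 7 red cell markers 2 were listed, with Hba-a1 at no more than 0.290 CPM and Alas2 at 0.195 to 1.33 CPM. Markers of astrocytes, neurons, oligodendrocytes and endothelial cells or fibroblasts summed to at most 0.698, 0.818, 12.04 and 1.65 CPM, with 1, 1, 2 and 1 of 4 listed. Whether replicates were grown separately is not stated in the labels, so the tests may see technical spread alone.

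All 10 members passed the count filter, and no member had fewer than 458 counts in any library. Fth1 was the most abundant, at 0.686% to 1.19% of all counts, and ranked 4 of all listed genes by mean CPM, while Hmox1 ranked 82. Per kilobase of transcript, mean levels in C3a libraries ran from 9598 CPM per kb for Fth1 through 694 for Hmox1 and 172 for Blvra to 83.0 for Ftl1 and 21.6 for Fech. Fth1, Hmox1, Blvra and then Ftl1 came first in that order in all 3 groups, and Ireb2 and Fech came last, but the place of Ftl1 is uncertain, since 90.6% of its 50-base windows also occur in other genes' transcripts. The libraries of neighbouring genes did not overlap from Fth1 down to Ftl1 in any group. In the C3a group the ranges of neighbours overlapped from Ftl1 through Tfrc (70.9), Blvrb (65.2), Slc40a1 (46.8) and Slc48a1 (43.7) to Ireb2 (31.6 CPM per kb), so their order there is not fixed beyond their spread.

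**Figure D1:**
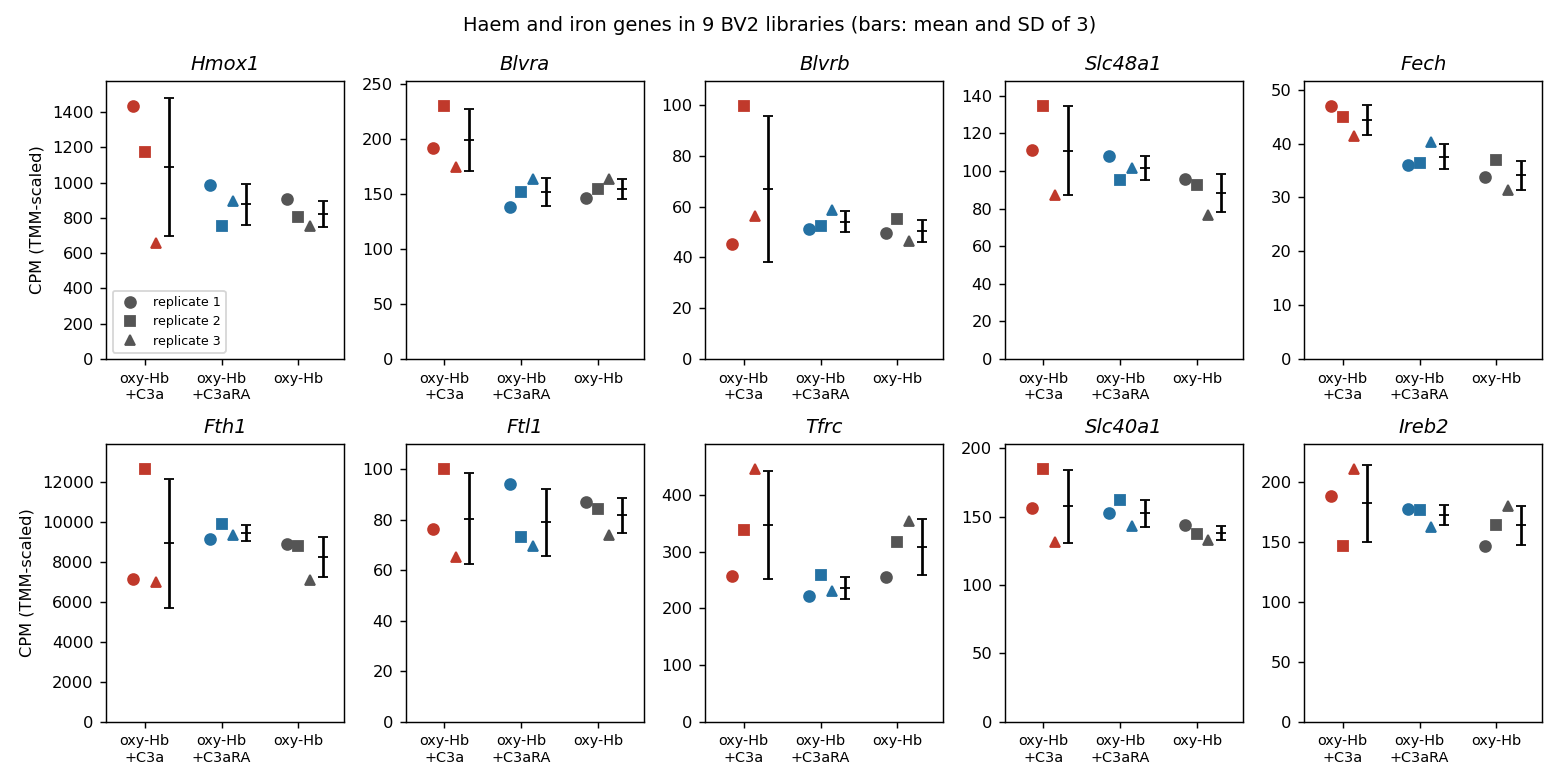
Levels of the 10 genes in CPM (vertical axes, linear, from 0), with 1 point per library, the mean as a line and the SD as a bar, for oxy-Hb plus C3a, oxy-Hb plus C3aRA and oxy-Hb alone. The C3a libraries are the most spread, as in Hmox1 (660.3 to 1432 CPM) and Blvrb (45.2 to 99.5 CPM).

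The comparisons asked whether adding C3a or C3aRA to oxy-Hb changed these transcripts, and whether the additions differed from each other. No member passed an adjusted p of 0.05 in edgeR's quasi-likelihood test in any of the 3 comparisons. For C3a against oxy-Hb this was 0 of 10 members, where 558 of 14146 tested genes (3.94%) passed, 128 higher and 430 lower. That split was 34 higher and 664 lower with total count scaling, and 473 higher and 417 lower with a length and GC correction. For C3aRA against oxy-Hb it was 0 of 10, where 0 of all genes (0%) passed. A fit of those 2 groups alone called 603 genes (4.43%) and 1 member, Tfrc. For C3a against C3aRA it was 0 of 10, where 876 genes (6.19%) passed.

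At an unadjusted p under 0.05 there were 3 members with C3a against oxy-Hb (Fech, Blvra and Slc48a1), where 24.1% of all genes were under it. There was 1 with C3aRA against oxy-Hb (Tfrc), where 8.15% were, and there were 2 with C3a against C3aRA (Blvra and Tfrc), where 24.2% were. DESeq2's Wald test called 2, 0 and 2 members in these comparisons, where it called 9.52%, 0.134% and 11% of all genes. Limma-voom called 0 members in each, where it called 4.42%, 0% and 5.59% of all genes. DESeq2's calls were Blvra and Fech for C3a against oxy-Hb, and Blvra and Tfrc for C3a against C3aRA. On simulated counts the main test recovered 58%, 50% and 46% of genes changed 1.5-fold in the 3 comparisons, and the fitted difference of every member was smaller than that. The simulated counts were drawn gene by gene with no library set apart, so they do not show recovery with a library such as C3a replicate 2.

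Most members had log2 fold changes above 0. With C3a against oxy-Hb 9 of 10 members had a log2 fold change above 0, with a median of 0.26, where all genes had a median of 0.0016 and 50.2% were above 0. With C3aRA against oxy-Hb it was 7 of 10 and a median of 0.099, where all genes had -0.012 and 48.0%. For C3a against C3aRA it was 9 of 10 and a median of 0.18, where all genes had 0.0083 and 50.7%. Without C3a replicate 2 the first and last became 8 of 10 with a median of 0.17 and 5 of 10 with a median of 0.084. With total count scaling C3a against oxy-Hb had 9 of 10 members above 0 and a median of 0.16, where all genes had a median of -0.089. Under that scaling it was 0.078 for Tfrc, 0.097 for Slc40a1, 0.067 for Ireb2 and 0.0091 for Fth1. The 3 comparisons share libraries, so these counts are not independent of each other. All 10 members were read in the same libraries and were chosen with earlier results of these data known. Their shares beside those of all genes are therefore a description only.

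**Figure D2:**
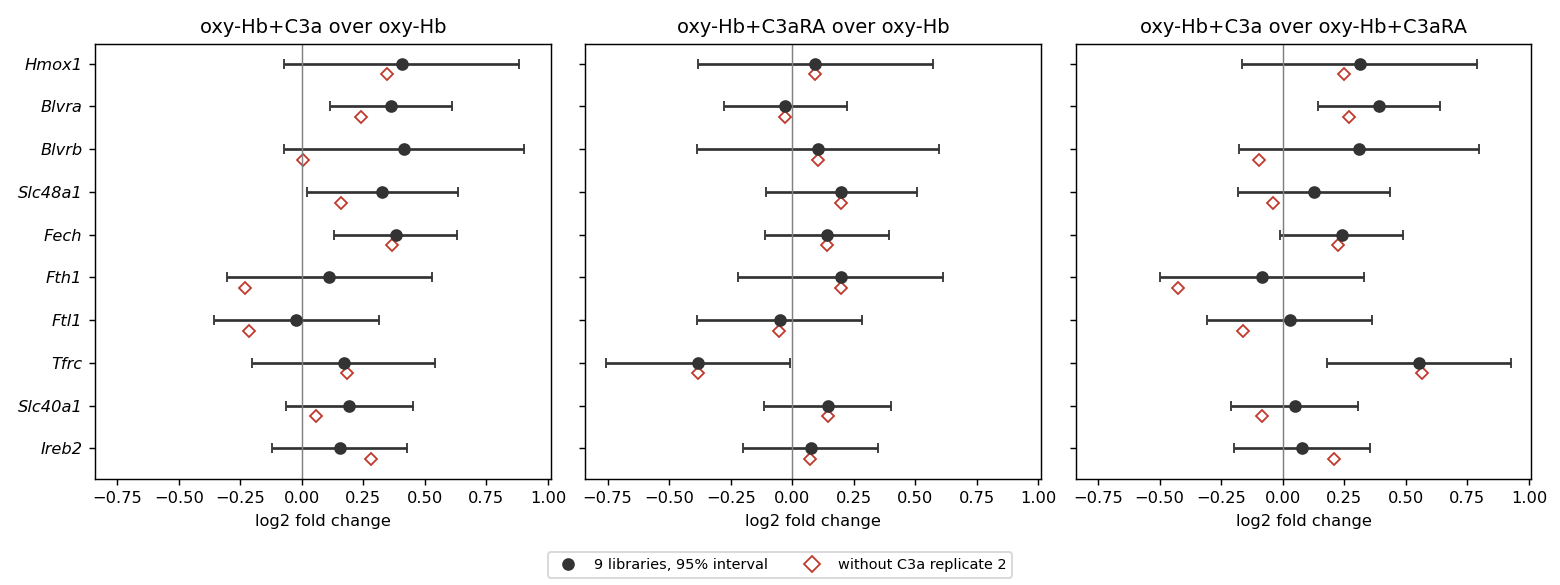
Log2 fold changes of the 10 genes with 95% confidence intervals from the fit, for C3a against oxy-Hb, C3aRA against oxy-Hb and C3a against C3aRA. The C3a to oxy-Hb differences lie between -0.022 (Ftl1) and 0.41 (Blvrb), and the largest of all is Tfrc for C3a against C3aRA, at 0.55.

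Hmox1 (ENSMUSG00000005413, chromosome 8, 75093621 to 75100589 in GRCm38, plus strand) encodes haem oxygenase 1, the inducible enzyme that opens the haem ring. It stood at 1432, 1174 and 660.3 CPM in C3a libraries, 985, 752 and 894 CPM in C3aRA libraries and 905, 805 and 756 CPM in oxy-Hb libraries. Of the C3a libraries, 2 were above all the others and the third was below them, so the groups overlapped. In bulk RNA, fewer cells with a transcript and less of it per cell cannot be told apart. The C3a mean of 1089 ± 393 CPM lay above the oxy-Hb mean of 822 ± 76.3 CPM (SD, n = 3 each) by a log2 fold change of 0.41 ± 0.22 (SE; 95% interval -0.073 to 0.88), with an edgeR adjusted p of 0.280. Without C3a replicate 3 it was 0.67 with an adjusted p of 0.0232, and without C3a replicate 1 it was 0.17, so the value rests on which C3a library is used. The C3aRA mean of 877 ± 117 CPM differed from oxy-Hb by 0.093 ± 0.22 (edgeR adjusted p = 0.943), and C3a against C3aRA gave 0.31 ± 0.22 (edgeR adjusted p = 0.414), which became 0.58 with an adjusted p of 0.0409 without C3a replicate 3 and 0.074 without C3a replicate 1.

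Blvra (ENSMUSG00000001999, chromosome 2, 127070665 to 127097084, plus strand) encodes biliverdin reductase A, which makes bilirubin. Its levels were 192, 230.1 and 175 CPM in C3a libraries, 139, 152 and 164 CPM in C3aRA libraries and 146, 155 and 164 CPM in oxy-Hb libraries. All 3 C3a libraries lay above all 6 of the others. Against oxy-Hb the difference was 0.36 ± 0.12 on the log2 scale (95% interval 0.11 to 0.61; edgeR adjusted p = 0.0885), and against C3aRA it was 0.39 ± 0.12 (0.14 to 0.64; edgeR adjusted p = 0.0609). Without C3a replicate 2 these were 0.24 with an adjusted p of 0.0669 and 0.27 with an adjusted p of 0.0312, and with the length and GC correction they shrank to 0.13 and 0.20 with adjusted p of 0.411 and 0.176. C3aRA against oxy-Hb was -0.029 ± 0.12 (edgeR adjusted p = 0.969). For C3a against oxy-Hb the groups of 2 members, Blvra and Fech, did not overlap with C3a higher, where 13.2% of all genes did so, and for C3a against C3aRA the same 2 members did, where 14.1% of all genes did.

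Blvrb (ENSMUSG00000040466, chromosome 7, 27447978 to 27466144, plus strand) encodes biliverdin reductase B, a reductase of flavins and of other biliverdin forms. It stood at 45.2, 99.5 and 56.4 CPM in C3a libraries, 51.3, 52.3 and 58.8 CPM in C3aRA libraries and 49.6, 55.1 and 46.5 CPM in oxy-Hb libraries. The C3a against oxy-Hb difference of 0.41 ± 0.22 (edgeR adjusted p = 0.280) rested on C3a replicate 2, and without it the difference was 0.0061. Without C3a replicate 1 it was 0.65 with an adjusted p of 0.0443. C3a against C3aRA was 0.31 (edgeR adjusted p = 0.430) and was -0.098 without replicate 2 and 0.53 without replicate 1, and C3aRA against oxy-Hb was 0.10 (edgeR adjusted p = 0.935). What set that library apart, such as its ribosomal protein sum of 48451 CPM, was not tested as a source of the Blvrb level.

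Slc48a1 (ENSMUSG00000081534, chromosome 15, 97778520 to 97792692, plus strand) encodes a haem transporter of the endosome and lysosome membrane. Its gene overlaps Hdac7 on the other strand, and with the strand setting not stated, reads of the pair cannot be told apart. Levels were 111, 134 and 87.3 CPM in C3a libraries, 108, 94.995 and 102 CPM in C3aRA libraries and 95.8, 92.6 and 76.8 CPM in oxy-Hb libraries. The groups overlapped, and C3a against oxy-Hb was 0.33 ± 0.14 (edgeR adjusted p = 0.185), or 0.16 without C3a replicate 2. With the length and GC correction it was 0.43 with an adjusted p of 0.0255. C3aRA against oxy-Hb was 0.20 ± 0.14 (edgeR adjusted p = 0.752), and C3a against C3aRA was 0.13 ± 0.14 (edgeR adjusted p = 0.624), which turned to -0.040 without C3a replicate 2 and was 0.29 without C3a replicate 3.

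Fech (ENSMUSG00000024588, chromosome 18, 64456550 to 64489066, minus strand) encodes ferrochelatase, which puts iron into protoporphyrin in the last step of haem synthesis. It was at 46.9, 44.8 and 41.4 CPM in C3a libraries, 36.0, 36.4 and 40.3 CPM in C3aRA libraries and 33.9, 36.9 and 31.4 CPM in oxy-Hb libraries. Every C3a library was above every other library. C3a against oxy-Hb was 0.38 ± 0.12 (95% interval 0.13 to 0.63; edgeR adjusted p = 0.0773), which was 0.37 without C3a replicate 2 with an adjusted p of 0.0462, and 0.56 with a length and GC correction with an adjusted p of 0.0209. C3a against C3aRA was 0.24 ± 0.12 (edgeR adjusted p = 0.225), or 0.42 with the length and GC correction (adjusted p = 0.0536), and C3aRA against oxy-Hb was 0.14 (edgeR adjusted p = 0.791).

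The ferritin genes hold the iron store. Fth1 (ENSMUSG00000024661, chromosome 19, 9982703 to 9985092, plus strand) encodes the heavy chain, which oxidises iron for storage, and Ftl1 (ENSMUSG00000050708, chromosome 7, 45457944 to 45459884, minus strand) the light chain. Fth1 stood at 7144, 12638 and 6967 CPM in C3a libraries, 9126, 9893 and 9347 CPM in C3aRA libraries and 8866, 8794 and 7102 CPM in oxy-Hb libraries. C3a replicate 2 was the highest and the other 2 C3a libraries were the lowest or near it. C3a against oxy-Hb was 0.11 ± 0.19 (edgeR adjusted p = 0.758) and turned to -0.23 without C3a replicate 2 and -0.040 with the length and GC correction. C3a against C3aRA was -0.085 ± 0.19 (edgeR adjusted p = 0.821), and without C3a replicate 2 it was -0.43 with an adjusted p of 0.000453, but without C3a replicate 1 or 3 it was 0.061 or 0.080. C3aRA lay above oxy-Hb in all libraries, by 0.20 ± 0.19 (edgeR adjusted p = 0.833), or by 0.10 without oxy-Hb replicate 3, where 11.9% of all genes had groups that did not overlap in that direction.

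Ftl1 stood at 76.1, 99.98 and 65.0 CPM in C3a libraries, 94.0, 73.1 and 69.5 CPM in C3aRA libraries and 86.8, 84.3 and 73.9 CPM in oxy-Hb libraries. Ftl1 levels are uncertain, since 833 of 919 windows of 50 bases in its transcript (90.6%) also occur in transcripts of 17 other genes, led by Ftl1-ps1, Gm15590 and Gm10252. For Fth1 it was 58 of 880 windows (6.59%), and for the other 8 members 0. Reads shared between copies could have been counted elsewhere or dropped, and how was not tested. At its own locus Ftl1 is overlapped by Gm22133 on the same strand and by Gm10252 on the other. Ftl1-ps1 itself had 4.13 to 7.62 CPM in C3a libraries, 3.56 to 6.46 CPM in C3aRA libraries and 2.77 to 7.48 CPM in oxy-Hb libraries, on library totals. The differences of Ftl1 were -0.022, -0.051 and 0.029 in the 3 comparisons, with edgeR adjusted p of 0.948, 0.960 and 0.930.

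Tfrc (ENSMUSG00000022797, chromosome 16, 32608920 to 32632794, plus strand) encodes the transferrin receptor, the main route of iron uptake, and carries 4 of the elements shown above. It stood at 257, 337 and 446 CPM in C3a libraries, 221, 258 and 230.2 CPM in C3aRA libraries and 255, 317 and 353 CPM in oxy-Hb libraries. The C3aRA libraries were the lowest, 2 of them below all others, with 1 overlapping. C3aRA against oxy-Hb was -0.38 ± 0.17 (95% interval -0.76 to -0.0090; edgeR adjusted p = 0.605), and -0.39 with an adjusted p of 0.0184 in a fit of those 2 groups alone. In the authors' deposited table the same contrast has a log2 fold change of -0.38 and an adjusted p of 0.00561, and Tfrc is the only member under 0.05 there, where 3.12% of all genes were. C3a against C3aRA was 0.55 ± 0.17 (95% interval 0.18 to 0.93, edgeR adjusted p = 0.0769). This became 0.73 with an adjusted p of 0.00823 without C3a replicate 1 and 0.34 without C3a replicate 3. Without C3a replicate 2 it was 0.57 (edgeR adjusted p = 0.262), and C3aRA against oxy-Hb was -0.38 (edgeR adjusted p = 0.497). C3a against oxy-Hb was 0.17 ± 0.17 (edgeR adjusted p = 0.575), which turned to -0.047 without C3a replicate 3 and was 0.36 without C3a replicate 1.

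Slc40a1 (ENSMUSG00000025993, chromosome 1, 45908068 to 45926523, minus strand) encodes ferroportin, the iron exporter. It stood at 157, 185 and 132 CPM in C3a libraries, 152, 162 and 143 CPM in C3aRA libraries and 144, 137 and 133 CPM in oxy-Hb libraries, which overlapped. C3a against oxy-Hb was 0.19 ± 0.12 (edgeR adjusted p = 0.343), or 0.057 without C3a replicate 2 and 0.31 without C3a replicate 3. C3aRA against oxy-Hb was 0.14 ± 0.12 (edgeR adjusted p = 0.793) and C3a against C3aRA 0.049 ± 0.12 (edgeR adjusted p = 0.837). The last turned to -0.086 without C3a replicate 2 and was 0.18 without C3a replicate 3. Ireb2 (ENSMUSG00000032293, chromosome 9, 54863789 to 54912530, plus strand) encodes iron regulatory protein 2, which binds the elements. It stood at 189, 147 and 211 CPM in C3a libraries, 178, 177 and 163 CPM in C3aRA libraries and 147, 164 and 180.2 CPM in oxy-Hb libraries. The groups overlapped and C3a against oxy-Hb was 0.15 ± 0.13 (edgeR adjusted p = 0.484), which was 0.28 with an adjusted p of 0.0306 without C3a replicate 2, the lowest C3a library, and 0.036 without C3a replicate 3, the highest. C3aRA against oxy-Hb was 0.074 ± 0.13 (edgeR adjusted p = 0.917) and C3a against C3aRA 0.079 ± 0.13 (edgeR adjusted p = 0.743), which was 0.21 without C3a replicate 2 and -0.029 without C3a replicate 3.

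The uptake and storage transcripts were set against each other as the log2 ratio of Tfrc to Fth1 within each library, which no scaling between libraries can move. The ratio was not corrected for GC or for transcript length, which is 4890 bases for Tfrc and 929 bases for Fth1. It was -4.79, -5.23 and -3.97 in C3a libraries, -5.37, -5.26 and -5.34 in C3aRA libraries and -5.12, -4.79 and -4.33 in oxy-Hb libraries. In reads, 15.6 to 37.5 Fth1 reads stood beside each Tfrc read with C3a, 38.3 to 41.3 with C3aRA and 20.1 to 34.8 with oxy-Hb alone. The C3aRA libraries had the lowest ratios and did not overlap either of the other groups, and they were also the closest together, with an SD of 0.056, against 0.64 with C3a and 0.40 with oxy-Hb alone. C3aRA against oxy-Hb differed by -0.58 and C3a against C3aRA by 0.66, each with p = 0.1 in a two-sided exact permutation test, which is the smallest p that 3 against 3 libraries allow. C3a against oxy-Hb differed by 0.085 (exact permutation p = 0.9). Without C3a replicate 2 the C3a differences were 0.37 against oxy-Hb and 0.94 against C3aRA, and without C3a replicate 3 they were -0.26 and 0.31. The C3aRA difference from oxy-Hb was -0.37 without oxy-Hb replicate 3, and C3a against oxy-Hb was -0.10 without oxy-Hb replicate 1.

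**Figure D3:**
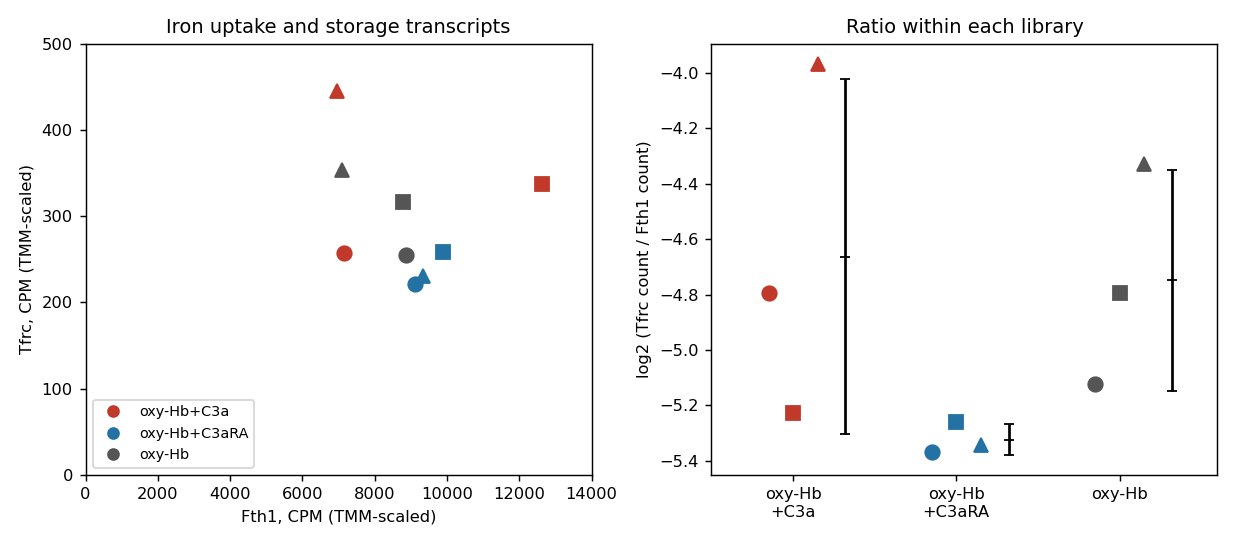
Left, Tfrc against Fth1 in CPM on linear axes from 0, with 1 point per library. Right, the log2 ratio of Tfrc to Fth1 per library with the mean and SD of each group, where the C3aRA libraries lie between -5.37 and -5.26, below all others.

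Other genes of the pathway were read from lists of 56 haem and iron genes, of which 45 were tested. Of these 2 fell with C3a against oxy-Hb and 0 rose, 0 passed with C3aRA against oxy-Hb, and for C3a against C3aRA 1 was higher and 2 were lower. Their median log2 fold change was 0.087 for C3a against oxy-Hb, -0.031 for C3aRA against oxy-Hb and 0.11 for C3a against C3aRA. All genes had medians of 0.0016, -0.012 and 0.0083. Of all genes 3.94%, 0% and 6.19% passed. The 0 with C3aRA is by edgeR's test, where 5 of the 45 list genes had an unadjusted p under 0.05, as did 8.15% of all genes. Among 8 haem synthesis genes 0, 0 and 1 passed, among 8 breakdown partners and regulators 0 in each, among 5 tested iron uptake genes 0 in each and among 12 mitochondrial iron genes 1, 0 and 2.

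Slc25a37, which encodes mitoferrin 1, the importer of iron into mitochondria, stood at 90.2, 83.8 and 77.8 CPM in C3a libraries, 149, 142 and 139 CPM in C3aRA libraries and 141, 125 and 121 CPM in oxy-Hb libraries. The C3a libraries lay below all others. Of all genes, 14.6% had every C3a library below every oxy-Hb library, and 14.7% had every one below every C3aRA library. It fell by 0.62 ± 0.10 on the log2 scale with C3a against oxy-Hb (edgeR adjusted p = 0.00586) and was 0.77 ± 0.10 lower in log2 than with C3aRA (edgeR adjusted p = 0.00440). The first call was lost without oxy-Hb replicate 1, and the other held without any single library.

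Lrp1, which encodes a receptor that takes up haem bound to haemopexin, stood at 170, 79.6 and 177 CPM in C3a libraries, 192, 197 and 238 CPM in C3aRA libraries and 344, 324 and 311 CPM in oxy-Hb libraries. It fell with C3a against oxy-Hb by 1.20 ± 0.23 (edgeR adjusted p = 0.0184). It fell by 0.92 without C3a replicate 2 and by 0.56 with the length and GC correction, and its call was lost in the fit of the 2 groups alone (adjusted p = 0.0510), with no count filter (adjusted p = 0.0775) and without oxy-Hb replicate 1 or 2. C3aRA against oxy-Hb was -0.64 ± 0.23 (edgeR adjusted p = 0.518).

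Cisd2, which encodes an iron-sulphur protein of the endoplasmic reticulum and mitochondria, stood at 54.0, 78.1 and 69.4 CPM in C3a libraries, 42.7, 40.6 and 44.9 CPM in C3aRA libraries and 49.7, 57.0 and 51.8 CPM in oxy-Hb libraries. It was 0.65 ± 0.13 higher in log2 with C3a than with C3aRA (edgeR adjusted p = 0.0163), and this call was lost without any 1 of the 3 C3aRA libraries and in the fit of those 2 groups alone (adjusted p = 0.0649). Ppox, which encodes the enzyme before ferrochelatase in haem synthesis, stood at 18.7, 16.8 and 17.4 CPM in C3a libraries, 24.9, 26.2 and 23.2 CPM in C3aRA libraries and 25.1, 24.6 and 23.7 CPM in oxy-Hb libraries. It was 0.49 ± 0.13 lower in log2 with C3a than with C3aRA (edgeR adjusted p = 0.0374), a call that held in 2 of 9 fits with a library left out and was lost with no count filter (adjusted p = 0.0604) and in the fit of those 2 groups alone (adjusted p = 0.0995). With C3a against oxy-Hb Ppox was at -0.47 (edgeR adjusted p = 0.0508), and it passed with total count scaling, upper quartile scaling, the 5 CPM filter, DESeq2, limma-voom and the length and GC correction, with adjusted p from 0.0124 to 0.0491, as well as without C3a replicate 1 or 2 (0.0375 and 0.0433). The C3a libraries lay below all others in Ppox, and above all C3aRA libraries in Cisd2. For C3a against C3aRA 14.7% of all genes had no overlap with C3a lower, and 14.1% with C3a higher. For C3a against oxy-Hb the share with C3a lower was 14.6%.

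With C3aRA against oxy-Hb the list genes of the lowest p were Lcn2, which encodes the iron-siderophore binding protein lipocalin 2, Pgrmc2, a haem-binding membrane protein, and Lrp1. Lcn2 stood at 74.4, 65.0 and 65.6 CPM in C3aRA libraries and 45.9, 44.4 and 36.2 CPM in oxy-Hb libraries, a difference of 0.69 ± 0.16 in log2 (edgeR adjusted p = 0.467). Pgrmc2 stood at 15.6, 18.1 and 15.5 CPM in C3aRA libraries and 21.7, 20.1 and 23.3 CPM in oxy-Hb libraries, a difference of -0.40 ± 0.14 (edgeR adjusted p = 0.504). The groups overlapped in neither gene, where 11.9% of all genes had no overlap with C3aRA higher and 11% with C3aRA lower. In the fit of those 2 groups alone Lcn2 (0.69, adjusted p = 0.000148) and Lrp1 (-0.64, adjusted p = 4.55e-06) passed, as they did without C3a replicate 2 (adjusted p = 0.00112 and 8.18e-06). Lcn2 also passed with no count filter (edgeR adjusted p = 0.0278). In C3a libraries Lcn2 was at 47.9, 57.0 and 34.0 CPM, and C3a against C3aRA was -0.56 (edgeR adjusted p = 0.0572). That passed with total count scaling, no count filter, DESeq2, the replicate block and the length and GC correction (adjusted p 0.00395 to 0.0478). It passed without C3a replicate 2 (0.000251), but not without C3a replicate 1 or 3 (0.0650 and 0.151) or with 2 groups (0.134).

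**Figure D4:**
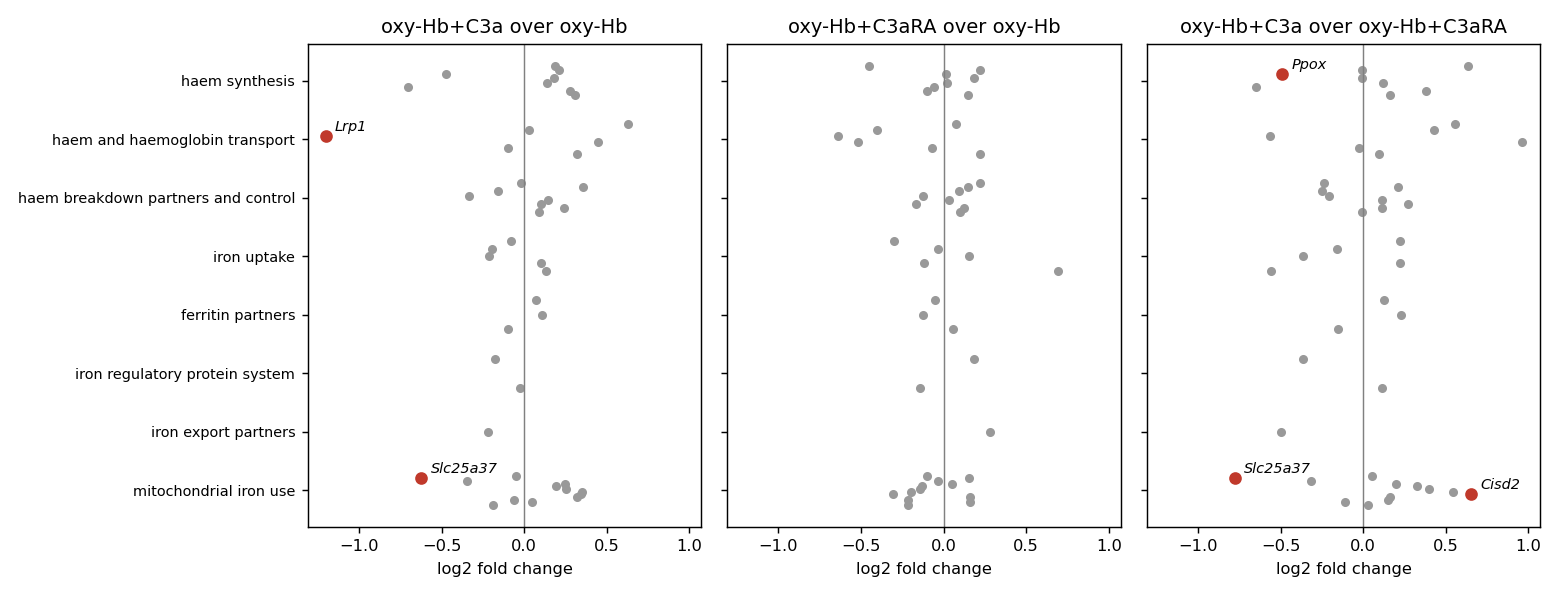
Log2 fold changes of the tested haem and iron list genes by list, for C3a against oxy-Hb, C3aRA against oxy-Hb and C3a against C3aRA, with genes past an adjusted p of 0.05 marked. The marked genes are Slc25a37 and Lrp1 in the first, none in the second, and Slc25a37, Cisd2 and Ppox in the third.

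The genes whose levels followed Hmox1 most closely over the 9 libraries, among 10099 tested genes of at least 5 mean CPM, were Plpp3 (Pearson r 0.96), Isoc2a (0.92), Ndrg1 (0.92), Grhpr (0.92) and Mcl1 (0.91). Over the 8 libraries without C3a replicate 2 their r was 0.96, 0.92, 0.97, 0.91 and 0.89. For Tfrc they were Wdr5b (0.96), Ndufaf4 (0.95), Mns1 (0.94), Alg6 (0.94) and Slc25a32 (0.93), with 0.97, 0.98, 0.95, 0.94 and 0.97 over the 8. These are descriptions of likeness in log2 CPM over libraries that share groups, chosen as the highest of all genes, with no test.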

How the data were processed

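The deposited tables hold raw read counts per gene, 3 libraries of each group, with the authors' log2 fold changes, p-values and adjusted p-values, made by the authors with a test not stated. Per the submitters' processing notes the genome was GRCm38, also given as mm10. Aligner, counter and strand setting were not given in the sources used here. Since 0 oxy-Hb counts differed between the tables, all 9 libraries were fitted together. GENCODE M21 holds 22908 of the 22935 identifiers, 22123 with identical coordinates. Positions of genes are those of the tables.

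Counts were tested in edgeR 4.0.16 (R 4.3.3) after filterByExpr with a minimum count of 10, which kept 14146 genes, TMM scaling and a robust quasi-likelihood fit with 1 coefficient per group. A gene was called where its p, adjusted by Benjamini-Hochberg over all tested genes, was below 0.05. The biological coefficient of variation was 15.8%. Gene levels are TMM-scaled CPM; sums over lists, Ftl1-ps1 and the floor use library totals. Levels per kilobase use the transcript chosen from GENCODE. Errors of levels are SDs, those of fold changes SEs, and intervals are 95%. Replicates of a group differed by more than sampling noise (chi-square per gene of 5.26 to 64.0). On simulated counts with 200 changed genes, 1.5, 2, 3 and 4 fold changes were recovered at 58%, 90%, 96% and 100% for C3a against oxy-Hb (12 false calls of 13654), 50%, 82%, 98% and 100% for C3aRA against oxy-Hb (15 of 13608) and 46%, 92%, 98% and 100% for C3a against C3aRA (20 of 13623).

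The members and lists were chosen with earlier results of these data known. Named are all members, list genes past the threshold, the 3 list genes of lowest p per comparison, and the 5 genes most like Hmox1 and Tfrc. Alternatives were other scalings, filters, DESeq2 1.42.0, limma-voom (limma 3.58.1), fits of 2 groups, a replicate block, each library left out in turn, a threshold of 0.01 and spline offsets for transcript length and GC.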

Additional observations from a re-analysis of the deposited data

How the results depend on the processing

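No member was called in any comparison as reported. For C3a against oxy-Hb 2 were called with DESeq2's Wald test and 2 with the length and GC correction, and 0 to 2 with a library left out. Of all genes 9.52%, 6.29% and 0.37% to 11.2% passed in these fits. For C3aRA against oxy-Hb 1 was called in the fit of 2 groups, and 0 with a library left out. There 4.43% and 0% to 3.25% of all genes passed. For C3a against C3aRA 2 were called with no count filter, 2 with DESeq2's Wald test and 2 with the replicate block, and 0 to 2 with a library left out. In the same order 5.75%, 11%, 8.55% and 0.361% to 12.5% of all genes passed. List genes called for C3a against oxy-Hb (2) became 4 with total count scaling, 1 with no count filter, 4 with DESeq2's Wald test, 1 in the fit of 2 groups, 5 with the length and GC correction, 1 at a threshold of 0.01, and 0 to 6 with a library left out. In the same order 4.93%, 4.58%, 9.52%, 0.72%, 6.29%, 0.714% and 0.37% to 11.2% of all genes passed. With C3aRA against oxy-Hb (0) they became 1 with no count filter, 2 in the fit of 2 groups and 0 to 2 with a library left out, 2 being without C3a replicate 2. There 0.0355%, 4.43% and 0% to 3.25% of all genes passed. For C3a against C3aRA (3) they became 9 with DESeq2's Wald test, 1 in the fit of 2 groups, 6 with the length and GC correction, 1 at 0.01, and 1 to 11 with a library left out, 11 being without C3a replicate 2. There 11%, 0.875%, 9.62%, 0.622% and 0.361% to 12.5% of all genes passed, 12.5% being without C3a replicate 2.

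Over all genes the calls for C3a against oxy-Hb (558) became 1033 with no count filter, 1346 with DESeq2, 99 in the fit of 2 groups, 890 with the length and GC correction, and 54 to 1638 with a library left out. With C3aRA against oxy-Hb (0) they were 603 in the fit of 2 groups and 475 without C3a replicate 2, and 8 with no count filter. For C3a against C3aRA (876) they were 1559 with DESeq2, 118 in the fit of 2 groups, 1361 with the length and GC correction and 53 to 1827 with a library left out. In that comparison 1296 of 22537 genes (5.75%) passed with no count filter. The replicate block gave 835 calls for C3a against oxy-Hb, 0 for C3aRA against oxy-Hb and 1210 for C3a against C3aRA. The cause of these shifts was not tested.

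Same-numbered deviations correlated at -0.0405 to 0.17 and different-numbered ones at -0.142 to 0.0813. Not every library correlated best with its own number. With 3 libraries per group these values cannot settle whether the replicate numbers mark pairs. Taken between same-numbered libraries, the mean Tfrc to Fth1 differences were 0.085, -0.58 and 0.66 in the 3 comparisons. With groups of equal size these equal the unpaired differences by arithmetic, so they are no check on them. In the fit of all genes the replicate block led to 2 called members for C3a against C3aRA, where 8.55% of all genes passed. These were Blvra (0.39, edgeR adjusted p = 0.0485) and Tfrc (0.52, edgeR adjusted p = 0.0224). For C3a against oxy-Hb the Tfrc to Fth1 difference ran from -0.26 to 0.37 with a library left out, reversing without C3a replicate 3 or oxy-Hb replicate 1; for C3aRA against oxy-Hb it ran from -0.76 to -0.37 and for C3a against C3aRA from 0.31 to 0.94.

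Several log2 fold changes reversed, none of them called as reported. With the length and GC correction Fth1 with C3a against oxy-Hb was -0.040, Ftl1 with C3aRA against oxy-Hb 0.026 and Ftl1 for C3a against C3aRA -0.031. With total count scaling Pgrmc2 with C3a against oxy-Hb was -0.063, Ppox with C3aRA against oxy-Hb -0.049 and Ftl1 for C3a against C3aRA -0.0041. Ppox with C3aRA against oxy-Hb was -0.0027 with upper quartile scaling and -0.00060 with the mean 5 CPM filter. With a library left out, C3a against oxy-Hb ran from -0.23 to 0.27 for Fth1, -0.22 to 0.11 for Ftl1, -0.047 to 0.36 for Tfrc, -0.048 to 0.32 for Lcn2 and -0.021 to 0.11 for Pgrmc2. C3aRA against oxy-Hb ran from -0.0069 to 0.19 for Hmox1, -0.083 to 0.023 for Blvra, -0.20 to 0.038 for Ftl1 and -0.034 to 0.065 for Ppox. C3a against C3aRA ran from -0.098 to 0.53 for Blvrb, -0.040 to 0.29 for Slc48a1, -0.43 to 0.080 for Fth1, -0.16 to 0.18 for Ftl1, -0.086 to 0.18 for Slc40a1 and -0.029 to 0.21 for Ireb2. Counting error is small at these depths for the members, since none had fewer than 458 counts in a library, and the spread between 3 libraries sets the limit.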
